A study of Mus musculus with 24 samples.

Results

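The RNA of 10 genes that encode heat shock proteins of the cytosol was followed in the brain and the liver of mice lacking single phenylalanine tRNA genes. The 10 genes were chosen by symbol, from the rows of both expression tables whose Ensembl identifiers map to Hspa8, Hspa1a, Hspa1b, Hsph1, Hspa4l, Dnaja1, Dnajb1, Hsp90aa1, Hsp90ab1 and Hspb1, out of 55469 rows in each table, and all 10 passed the filter on low values in both tissues. This choice was made with earlier results of these data known. The samples came from wild-type (WT) mice and from mice homozygous for the deletion of either tRNA-Phe-1-1, or tRNA-Phe-2-1, or else tRNA-Phe-3-1, genes for the transfer RNAs that carry phenylalanine. Per the study's methods, the mice were males of the C57BL/6N background, with WT and mutant mice matched for age and litter. The same methods state that all experiments drew on mice of different litters, matched for age and genotype. The study's reporting summary gives an age of 10 weeks and says that the results rest on both sexes, so the sex of these samples is uncertain. The deletions had been made with CRISPR/Cas9 in embryos, separated by crossing to WT mice and bred on for at least 10 generations. Each knockout is therefore a whole-body loss of 1 tRNA gene from before birth, carried by 1 line. The 24 samples were made up of 3 per genotype and tissue, lettered A to C, and the values of a group are given in this order. RNA was taken from a whole piece of tissue, so a change in the RNA of each cell and a change in the share of cells cannot be told apart.

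Heat shock proteins are chaperones that bind unfolded protein chains and help them fold, stay soluble or be degraded. HSP70 proteins hold exposed stretches of a chain in cycles driven by ATP, J-domain proteins bring clients to HSP70 and start its ATP hydrolysis, HSP110 proteins release the nucleotide, HSP90 proteins finish the folding of kinases and receptors, and small heat shock proteins keep unfolded chains from clumping. Heat, unfolded protein and other stresses release the transcription factor HSF1 from chaperones, and HSF1 then binds repeated GAA units, the heat shock element, before these genes. In mouse liver the RNA of several heat shock genes is also known to vary over the day, with body temperature and feeding.

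The depth recovered from the normalised counts was 30365760 to 46225360 reads in the brain samples and 32276896 to 51584522 in those of the liver. A normalised count is here a read count divided by one factor per sample, since all values of a sample are whole multiples of one step, and the tables of the 2 tissues were normalised separately. The labelled tissues carried their markers, with all 5 neuron markers above 0 in every brain group and hepatocyte markers summing to 2128700 to 3254500 normalised counts in the livers. The library farthest from the median profile of its tissue was tRNA-Phe-3-1-/- replicate C in the brain (Pearson r = 0.970 across genes) and tRNA-Phe-1-1-/- replicate B in the liver (r = 0.963). Hepatocyte genes summed to as much as 50451 normalised counts in a brain sample, of the tRNA-Phe-2-1-/- group.

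The regulatory sequences of the genes are shown because HSF1 acts through them. Promoter windows from RefSeq for GRCm38.p6, the build of the study, covered 7 of the 10 genes with 11 windows of 250 bases before and 50 bases from a start site. Hspa8, Hsp90aa1 and Hsp90ab1 were not among the windows. Both strands were searched for 2 facing units (GAANNTTC or TTCNNGAA) and for 3 alternating units (GAANNTTCNNGAA or TTCNNGAANNTTC, each of which contains both 2-unit forms). The 2-unit letters were found for 5 of the 7 genes, Hsph1, Hspa1a, Hspa1b, Dnaja1 and Hspb1, against 17.0% of all genes with windows and 15.1% of all windows. The 3-unit letters were found for Hsph1 alone among the 7, against 0.662% of all genes and 0.603% of all windows. Neither form was found in the windows of Dnajb1 and Hspa4l, which says only that these letters are not in these windows. A match is a description of the letters and not a measured binding site. All 5 genes hold a 2-unit match upstream of a start site. The 160 bases before that start site, and 30 bases around the 3-unit match of Hsph1, which lies downstream, read 5′ to 3′ on the strand of the gene as follows, with the matched letters in capitals.
Hspa1a: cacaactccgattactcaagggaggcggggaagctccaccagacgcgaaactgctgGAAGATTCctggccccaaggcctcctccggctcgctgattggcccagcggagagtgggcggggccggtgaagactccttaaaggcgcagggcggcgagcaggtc
Hspa1b: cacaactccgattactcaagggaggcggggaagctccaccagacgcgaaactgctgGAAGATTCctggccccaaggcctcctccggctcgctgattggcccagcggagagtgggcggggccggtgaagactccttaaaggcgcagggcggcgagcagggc
Hspb1: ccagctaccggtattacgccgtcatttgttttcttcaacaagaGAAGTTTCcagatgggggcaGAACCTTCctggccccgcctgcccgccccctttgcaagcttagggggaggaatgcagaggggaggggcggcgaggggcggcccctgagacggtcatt
Dnaja1: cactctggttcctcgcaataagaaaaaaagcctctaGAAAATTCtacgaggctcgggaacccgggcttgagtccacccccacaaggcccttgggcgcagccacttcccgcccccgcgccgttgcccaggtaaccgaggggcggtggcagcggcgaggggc
Hsph1 (upstream): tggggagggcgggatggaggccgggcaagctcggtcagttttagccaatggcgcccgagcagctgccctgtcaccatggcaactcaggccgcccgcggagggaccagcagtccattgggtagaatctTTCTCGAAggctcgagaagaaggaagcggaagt
Hsph1 (downstream): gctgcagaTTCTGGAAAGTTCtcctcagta

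These stretches lie at chr17:34972157-34972316 (minus strand) for Hspa1a, chr17:34959239-34959398 (minus strand) for Hspa1b, chr5:135887759-135887918 (plus strand) for Hspb1, chr4:40722308-40722467 (plus strand) for Dnaja1 and, for Hsph1, chr5:149636337-149636496 (minus strand) and chr5:149636279-149636308 (minus strand). Hsph1 has 2 start sites in the windows, 21 bases apart. Its upstream 2-unit match is centred 30 bases before the first and 51 before the second, and its 3-unit match 42 bases after the first and 21 after the second, inside the transcribed part. Dnaja1 has 3 start sites, and its match lies 121 bases before the first of them. The stretches of Hspa1a and Hspa1b, which are neighbours on chromosome 17, differ at 1 of 160 bases, and each holds the 2-unit letters centred 101 bases before the start. Hspb1 has 2 such matches, centred 114 and 94 bases before its start.

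Levels can be compared between genes only per length of transcript, so normalised counts were divided by the transcript length for this purpose. In the WT brain Hspa8, the HSP70 that cells make without stress, led with 32043 normalised counts per kb. It was followed by the HSP90 genes Hsp90aa1 (10137) and Hsp90ab1 (9654), whose ranges over the 3 samples overlapped. Dnaja1 (1217), Hsph1 (1110) and Hspa4l (1004) formed a middle group in which neighbours overlapped, then came Dnajb1 (455), and Hspb1 (173), Hspa1b (146) and Hspa1a (128) were lowest. Hspb1 and Hspa1b overlapped, whereas Hspa1b and Hspa1a did not. Before division by length, the WT brain ranges of Hspa1b (380.5 to 452.6) and Hspa1a (366.7 to 389.4) did overlap. The 2 genes share much of their sequence, so their order is uncertain. In the WT liver the order was Hspa8 (14244 normalised counts per kb), Hsp90ab1 (6689), Hsp90aa1 (2329), Dnaja1 (869) and Hspb1 (427), each without overlap with the next. Hsph1 (226), Hspa1b (197), Hspa4l (146) and Dnajb1 (146) overlapped with their neighbours, and Hspa1a stood apart below them at 12.9.

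The effect of losing tRNA-Phe-1-1 was examined first. In the livers of tRNA-Phe-1-1-/- mice 9 of the 10 heat shock genes rose against WT, from 0.62 for Hsp90ab1 to 2.50 for Hspb1 on the log2(normalised count + 1) scale. In the brain 5 of the 10 rose, Hspb1, Hspa1b, Dnajb1, Hsph1 and Dnaja1, with log2 fold changes of 0.43 to 1.45, and the other 5 had values above 0 that did not pass the test. Calls used limma on all genes with Benjamini-Hochberg adjusted p under 0.05, and among all genes tested 0.624% of 19228 in the brain and 8.27% of 15856 in the liver were called higher. For the 10 genes the median log2 fold change reached 0.48 in the brain and 1.03 in the liver, while the medians over all genes tested were -0.00059 and -0.0051. All 3 tRNA-Phe-1-1-/- samples lay above all 3 WT samples for 9 of 10 genes in the brain (12.8% of all genes) and for 8 of 10 in the liver (17.2% of all genes). The exceptions were Hspa4l in the brain, and Hspa1a and Hspa1b in the liver.

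**Figure D1:**
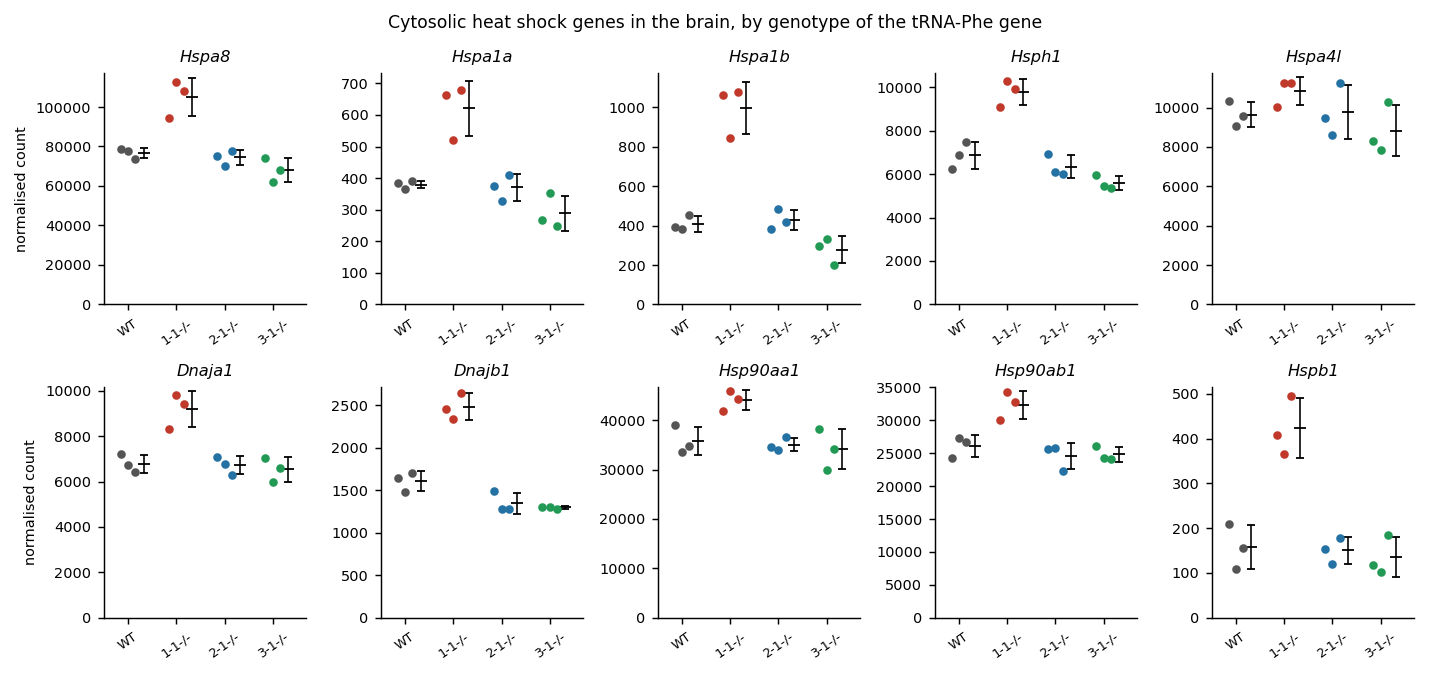
Normalised counts (vertical axes, from 0, one scale per gene) of the 10 heat shock genes in the brain, for WT mice and for those lacking tRNA-Phe-1-1 (1-1-/-), those lacking tRNA-Phe-2-1 (2-1-/-) or those lacking tRNA-Phe-3-1 (3-1-/-). Points are samples and bars the mean ± SD of 3; the tRNA-Phe-1-1-/- points lie above the WT points for 9 of 10 genes, all but Hspa4l.

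Among the HSP70 genes, Hspa8 is the constitutive form. It stood at 78527, 77728 and 73880 normalised counts in WT brains and at 94180, 112613 and 107909 in tRNA-Phe-1-1-/- brains. The groups did not overlap, but the log2 fold change of 0.45 ± 0.10 (SE) had an adjusted p of 0.0585. In the liver the values were 40647, 31792 and 29863 in WT mice and 66104, 54555 and 81839 in tRNA-Phe-1-1-/- mice. This rise of 0.98 ± 0.19 on the log2 scale passed the test (adjusted p = 0.0055), with every knockout liver above every WT liver. With quantile normalisation, the brain log2 fold change of Hspa8 was 0.26, the lowest of all settings.

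Hspa1a and Hspa1b encode the HSP70 that cells make under stress, and their products are nearly identical. WT brains held 390.9, 380.5 and 452.6 normalised counts of Hspa1b and tRNA-Phe-1-1-/- brains 1064, 843.7 and 1078, a rise of 1.28 ± 0.18 on the log2 scale (adjusted p = 0.016). Hspa1a was at 383.2, 366.7 and 389.4 in WT brains and at 663.4, 521.6 and 679.4 in tRNA-Phe-1-1-/- brains, without overlap, and its log2 fold change was 0.70 ± 0.15 (adjusted p = 0.0549). So both genes were higher in every tRNA-Phe-1-1-/- brain, and Hspa1b alone passed the test. WT livers showed a wide spread of Hspa1b, with 903.8, 385.5 and 368.4 normalised counts, and the tRNA-Phe-1-1-/- livers held 2415, 854.3 and 3346. The log2 fold change was 1.91 ± 0.53 (adjusted p = 0.0283), although WT replicate A lay above tRNA-Phe-1-1-/- replicate B. Hspa1a was low in the liver, with 63.5, 23.7 and 27.2 normalised counts in WT mice and 82.8, 50.3 and 112.6 in tRNA-Phe-1-1-/- mice, a log2 fold change of 1.15 ± 0.45 that did not pass the test (adjusted p = 0.107).

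In the annotation, 49.9% of the 100-base stretches of Hspa1b are shared with Hspa1a, and 47.1% of those of Hspa1a with Hspa1b, so the division of reads between them is uncertain. The ratio of Hspa1b to Hspa1a was 1.02 to 1.16 in WT brains and 1.59 to 1.62 in tRNA-Phe-1-1-/- brains, and 13.5 to 16.3 and 17.0 to 29.7 in the corresponding livers. With both genes summed, a setting chosen after seeing the data, the log2 fold change was 1.03 ± 0.14 in the brain (adjusted p = 0.016) and 1.88 ± 0.52 in the liver (adjusted p = 0.0283). Other genes with copies were Hspb1, which shares 31.6% of its stretches with Hsp25-ps1, Hsp90aa1 (23.4% shared with 4 genes), Hspa8 (9.78% with 7 genes) and Dnaja1 (6.99% with 3 genes), and the values of these are uncertain to that extent. Hsph1, Hspa4l, Hsp90ab1 and Dnajb1 shared 0 stretches.

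The HSP110 genes Hsph1 and Hspa4l encode relatives of HSP70 that act as its nucleotide exchange factors. WT brains held 6215, 6877 and 7485 normalised counts of Hsph1 and tRNA-Phe-1-1-/- brains 9103, 10301 and 9913, a rise of 0.51 ± 0.09 on the log2 scale (adjusted p = 0.0314). In the liver Hsph1 stood at 1763, 1246 and 1177 in WT mice and at 4532, 3541 and 3882 in tRNA-Phe-1-1-/- mice, a rise of 1.53 ± 0.19 (adjusted p = 0.00051). Every tRNA-Phe-1-1-/- sample was above every WT sample in both tissues. Hspa4l rose in the liver, where WT mice had 1563, 1203 and 1427 and tRNA-Phe-1-1-/- mice 2938, 2390 and 2294 normalised counts (log2 fold change 0.86 ± 0.15, adjusted p = 0.0035). In the brain its groups overlapped, with 10333, 9044 and 9557 in WT mice and 10040, 11261 and 11239 in tRNA-Phe-1-1-/- mice (0.17 ± 0.12, adjusted p = 0.530).

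**Figure D2:**
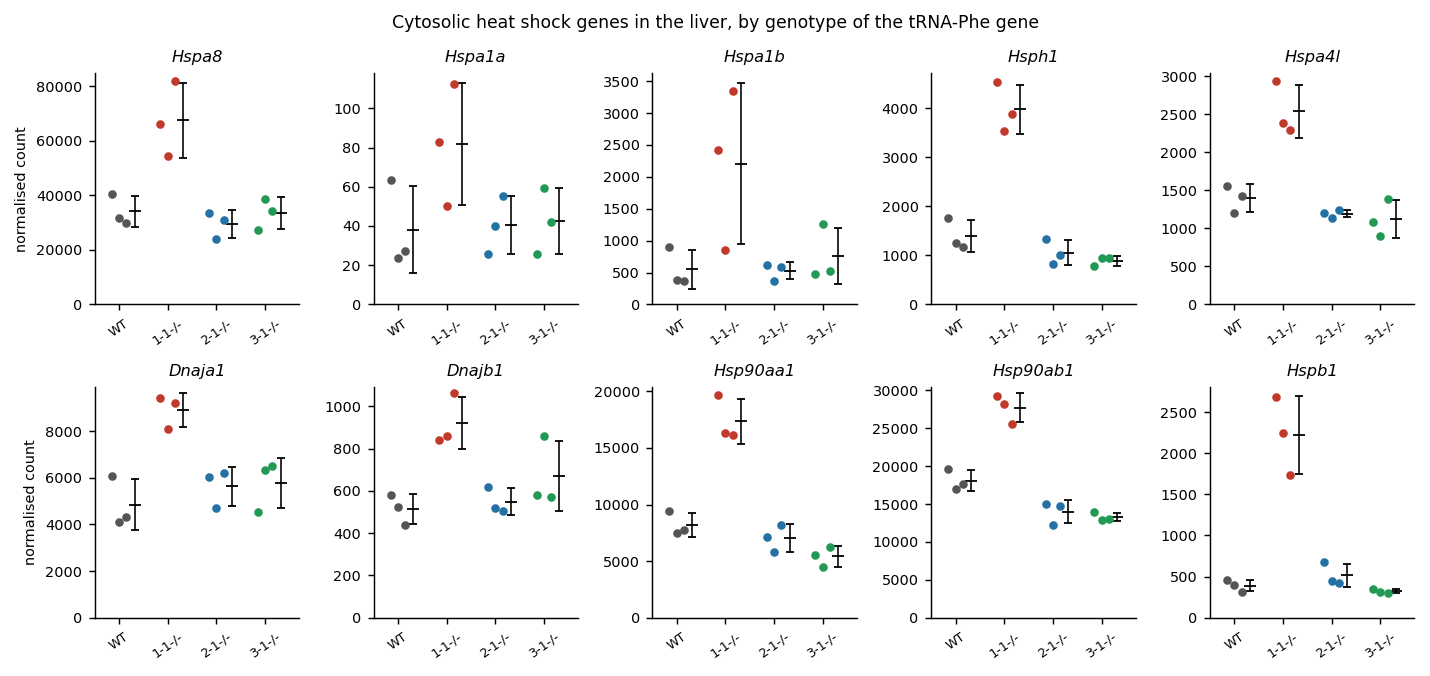
Normalised counts (vertical axes, from 0, one scale per gene) of the 10 heat shock genes in the liver, for the same 4 genotypes. Points are samples and bars the mean ± SD of 3; Hspb1, Hsph1 and the HSP90 genes show wide gaps between WT and tRNA-Phe-1-1-/- livers, and WT replicate A is the highest WT liver for all 10 genes.

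Dnajb1 and Dnaja1 encode J-domain partners of HSP70. Dnajb1 was at 1644, 1480 and 1705 normalised counts in WT brains and at 2459, 2337 and 2649 in tRNA-Phe-1-1-/- brains, a rise of 0.62 ± 0.08 on the log2 scale (adjusted p = 0.0155). It was also higher in each tRNA-Phe-1-1-/- liver, at 840.3, 860.5 and 1062 against 581.3, 521.8 and 439.7 in WT livers (0.84 ± 0.17, adjusted p = 0.0070). Dnaja1 rose by 0.43 ± 0.09 in the brain (adjusted p = 0.0474), from 6415 to 7191 normalised counts in the WT range to 8296 to 9829 in the knockout range. This call held in 4 of 11 other settings and in 1 of 6 fits with a library left out, and with the replicate letter as a block its adjusted p was 0.0723. The liver rise of Dnaja1 was 0.90 ± 0.18 (adjusted p = 0.0057), with 4111 to 6091 in WT mice and 8076 to 9422 in tRNA-Phe-1-1-/- mice.

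The HSP90 genes Hsp90aa1, the form that stress induces, and Hsp90ab1, the form that cells make at all times, rose in the liver and did not pass the test in the brain. Hsp90aa1 stood at 9442, 7446 and 7778 normalised counts in WT livers and at 19669, 16334 and 16119 in tRNA-Phe-1-1-/- livers (1.08 ± 0.16 on the log2 scale, adjusted p = 0.0011). WT livers held 19626, 16979 and 17634 normalised counts of Hsp90ab1 and tRNA-Phe-1-1-/- livers 29313, 28226 and 25578 (0.62 ± 0.10, adjusted p = 0.0019). In both cases the groups were apart. The brain values of Hsp90aa1 were 33578 to 39000 in WT mice and 41877 to 45904 in tRNA-Phe-1-1-/- mice (0.30 ± 0.10, adjusted p = 0.163), and those of Hsp90ab1 were 24216 to 27293 and 30011 to 34275 (0.31 ± 0.09, adjusted p = 0.115). These brain ranges did not overlap either.

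The small heat shock gene Hspb1, whose protein holds unfolded chains without using ATP, rose in both tissues. It stood at 208.7, 109.9 and 155.8 normalised counts in WT brains and at 409.1, 364.7 and 496.0 in tRNA-Phe-1-1-/- brains, a rise of 1.45 ± 0.27 on the log2 scale (adjusted p = 0.0376). WT livers held 454.3, 400.3 and 317.8 and tRNA-Phe-1-1-/- livers 2678, 2244 and 1739, a rise of 2.50 ± 0.20 (adjusted p = 5.4e-05). The lowest knockout liver was thus far above the highest WT liver, and the brain groups were apart too. Its brain value and that of Hspa1b were closer than the SE of either gene.

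The brain calls rested on single libraries and on the tool, as DESeq2 called 8 of the 10 genes higher (2.5% of all genes). The number of genes called was 0 when WT replicate B, WT replicate C or tRNA-Phe-1-1-/- replicate C was left out, 2 without tRNA-Phe-1-1-/- replicate B, 3 without WT replicate A and 4 without tRNA-Phe-1-1-/- replicate A. Calls fell over all 19228 genes too. The number called higher was 120 in the main fit and 14, 4, 6, 13, 41 and 103 in these fits, in the same order. The fold changes of the heat shock genes stayed above 0. With 1 library left out, that of Dnajb1 lay between 0.57 and 0.67, that of Hspa1b between 1.22 and 1.39, that of Hsph1 between 0.44 and 0.58, that of Dnaja1 between 0.38 and 0.51 and that of Hspb1 between 1.21 and 1.67 on the log2 scale. In the liver 8 to 10 genes were called when 1 library was left out, where the main fit called 8.27% of all genes higher. Hspa1b was lost without WT replicate B, WT replicate C, tRNA-Phe-1-1-/- replicate A or tRNA-Phe-1-1-/- replicate C (log2 fold change 1.51 to 2.49 over all 6). Hspa1a was gained without WT replicate A (1.57, adjusted p = 0.0378). WT replicate A had the highest mean level of the 10 genes among the WT livers, 0.09 on the log2 scale relative to the mean of the 12 livers, against -0.44 and -0.46 for the other WT livers and 0.71 to 1.10 for the tRNA-Phe-1-1-/- livers.

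The other 2 losses, of tRNA-Phe-3-1 and of tRNA-Phe-2-1, were compared with the same WT samples, so these comparisons are not independent of the one above. In tRNA-Phe-2-1-/- brains 0 of the 10 genes passed the limma test (0% of all genes, and 1 of the 10 at an unadjusted p under 0.05). The gene was Dnajb1, at 1489, 1279 and 1274 normalised counts against 1644, 1480 and 1705 in WT mice (log2 fold change -0.26 ± 0.08, adjusted p = 0.892), and the groups overlapped. In tRNA-Phe-3-1-/- brains 0 of the 10 genes passed (0% of all genes, and 4 of the 10 at an unadjusted p under 0.05), and DESeq2 on the recovered reads called 1 lower, Dnajb1 (1.18% of all genes). All 10 log2 fold changes were below 0, from -0.58 to -0.06 with a median of -0.20. For 4 genes every tRNA-Phe-3-1-/- brain was below every WT brain (8.48% of all genes). These were Dnajb1 at 1303, 1307 and 1281 normalised counts (log2 fold change -0.31 ± 0.08, adjusted p = 0.218), Hsph1 at 5966, 5453 and 5380 (-0.29 ± 0.09, adjusted p = 0.243), Hspa1b at 298.5, 333.4 and 202.4 (-0.58 ± 0.18, adjusted p = 0.248) and Hspa1a at 266.2, 351.7 and 246.9 (-0.41 ± 0.15, adjusted p = 0.309). Without tRNA-Phe-3-1-/- replicate C, the library farthest from the median brain profile, the value of Hspa1b was -0.37.

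In the livers of tRNA-Phe-2-1-/- mice 0 of the 10 genes passed the limma test (0.132% of all genes, and 1 of the 10 at an unadjusted p under 0.05), whereas DESeq2 called 1 lower (2.11% of all genes). That gene was Hsp90ab1, with 14954, 12213 and 14696 normalised counts, each below the lowest WT liver, as were 12.2% of all genes (log2 fold change -0.38 ± 0.10, adjusted p = 0.139 with limma). In the livers of tRNA-Phe-3-1-/- mice 0 passed with limma (0.883% of all genes, and 3 of the 10 at an unadjusted p under 0.05) and 3 were called lower with DESeq2 (3.01% of all genes). Hsp90ab1 was at 13938, 12939 and 13044 (-0.44 ± 0.10, adjusted p = 0.0648 with limma), Hsp90aa1 at 5584, 4452 and 6248 (-0.61 ± 0.16, adjusted p = 0.0958 with limma) and Hsph1 at 779.0, 940.7 and 956.1 (-0.63 ± 0.19, adjusted p = 0.142 with limma). Every tRNA-Phe-3-1-/- liver was below every WT liver for these 3 genes (10.1% of all genes). Of the other 7 genes, Hspb1 stood at 345.8, 318.4 and 299.6 normalised counts and Hspa1b at 475.4, 1262 and 526.8, overlapping with WT livers.

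**Figure D3:**
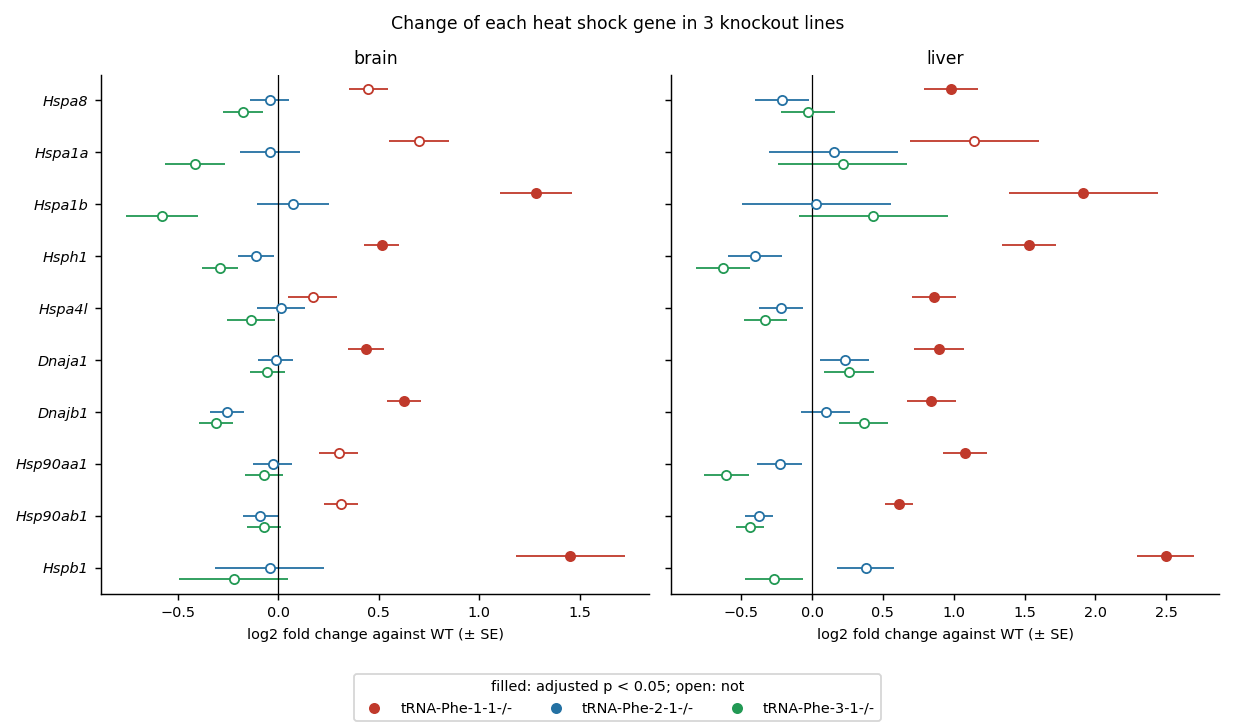
Log2 fold change against WT ± SE (horizontal axis) of each heat shock gene in the brain and the liver, for 3 knockouts (colours), with filled points for adjusted p under 0.05 (limma). Filled points belong only to tRNA-Phe-1-1-/- mice, 5 in the brain and 9 in the liver; the tRNA-Phe-3-1-/- points of the brain all lie left of 0.

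The knockouts were also compared with each other. In the brain 4 of the 10 genes were higher in tRNA-Phe-1-1-/- than in tRNA-Phe-2-1-/- mice (0.395% of all genes), led by Dnajb1 at 0.88 ± 0.08 on the log2 scale (adjusted p = 0.0026) and followed by Hsph1, Hspa1b and Hspb1, while DESeq2 called 9 higher (2.13% of all genes). In the same tissue 8 of the 10 were higher in tRNA-Phe-1-1-/- than in tRNA-Phe-3-1-/- mice (1.41% of all genes), led by Hspa1b with 1.86 ± 0.18 and Dnajb1 with 0.93 ± 0.08 (adjusted p = 0.0021 for each). Hsp90aa1 (0.37 ± 0.10, adjusted p = 0.0757) and Hspa4l (0.31 ± 0.12, adjusted p = 0.192) did not pass. Between tRNA-Phe-3-1-/- and tRNA-Phe-2-1-/- brains 0 of the 10 passed (0% of all genes, and 2 of the 10 at an unadjusted p under 0.05, with 0 called by DESeq2, against 0.863% of all genes). The test for any difference among the 4 genotypes called 6 of the 10 genes in the brain (0.634% of all genes), Dnajb1, Hspa1b, Hsph1, Hspa1a, Hspb1 and Hspa8.

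Among the livers 9 of the 10 genes were higher in tRNA-Phe-1-1-/- than in tRNA-Phe-2-1-/- mice (7.37% of all genes), with Hspb1 at 2.12 ± 0.20 and Hsph1 at 1.93 ± 0.19 on the log2 scale. The exception was Hspa1a (0.99 ± 0.45, adjusted p = 0.161). Against tRNA-Phe-3-1-/- livers 7 of the 10 were higher (7.45% of all genes), with 2.77 ± 0.20 for Hspb1 and 2.16 ± 0.19 for Hsph1. The genes that did not pass were Dnajb1 (0.48 ± 0.17, adjusted p = 0.0804), Hspa1b (1.48 ± 0.53, adjusted p = 0.0766) and Hspa1a (0.93 ± 0.45, adjusted p = 0.186). Without tRNA-Phe-3-1-/- replicate B, which had the highest Dnajb1 and Hspa1b of its group, Dnajb1 (0.67, adjusted p = 0.0177) and Hspa1b (1.93, adjusted p = 0.039) passed as well. Between tRNA-Phe-3-1-/- and tRNA-Phe-2-1-/- livers 0 of the 10 passed (0% of all genes, and 2 of the 10 at an unadjusted p under 0.05, with 0 called by DESeq2, against 0.183% of all genes). Any difference among the 4 genotypes was called for 8 of the 10 genes in the liver (17% of all genes), not for Hspa1b (adjusted p = 0.0582) and Hspa1a (adjusted p = 0.225).

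Whether the effect of losing tRNA-Phe-1-1 differed between the tissues was tested in one limma fit of all 24 samples, over the 14456 genes that passed the filter in both tissues. The labels do not tell whether a brain and a liver of one genotype and letter came from the same mouse, so the fit had no term for the mouse, and its errors and p-values take the 24 samples as separate. The change was larger in the liver for 3 of the 10 genes (3.21% of all genes): Hsph1 by 1.02 ± 0.22 (adjusted p = 0.0082), Hsp90aa1 by 0.78 ± 0.19 (adjusted p = 0.0155) and Hspa4l by 0.69 ± 0.20 on the log2 scale (adjusted p = 0.0431). The difference for Hspb1, 1.05 ± 0.36, did not pass (adjusted p = 0.0834). All 10 differences were above 0, with a median of 0.58 against 0.0035 over all genes, and the lowest was that of Dnajb1 at 0.22 ± 0.20 (adjusted p = 0.573).

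Other chaperone genes and their partners were then counted in tRNA-Phe-1-1-/- against WT mice. In this comparison 0.624% of all genes in the brain and 8.27% in the liver were called higher. The HSP90 cochaperones, which load clients onto HSP90 and time its ATP cycle, had 7 of 10 genes called higher in the liver (median log2 fold change 0.49) and 2 of 10 in the brain (median 0.26). Stip1, which links HSP70 to HSP90, rose in both tissues, by 0.57 ± 0.08 in the brain (adjusted p = 0.0183) and 0.60 ± 0.09 in the liver (adjusted p = 0.0018). Ahsa1, an activator of the HSP90 ATPase, rose by 0.44 ± 0.09 and 0.77 ± 0.08 (adjusted p = 0.0456 and 0.00014). Of 9 cofactors of HSP70, 0 were called in the brain (limma, lowest adjusted p 0.0903 for St13) and 1 in the liver, Bag3 (0.72 ± 0.17, adjusted p = 0.0149), whose protein joins HSP70 to small heat shock proteins. Among other small heat shock genes Hspb8, a partner of Bag3, rose in the liver by 1.35 ± 0.14 (adjusted p = 0.00021), as 1 of 3 tested, and 0 of 5 were called in the brain.

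The counts that follow stand beside 0.624% of all genes called higher in the brain and 8.27% in the liver. Of the other J-domain genes, 2 of 7 were called higher in the brain, Dnaja4 (0.44 ± 0.07, adjusted p = 0.0204) and Dnajb4 (0.49 ± 0.09, adjusted p = 0.0376), and 0 of 7 in the liver. The other HSP70 and HSP110 genes of the cytosol had 0 of 6 called in the brain and 1 of 5 in the liver, Hspa4 with 0.38 ± 0.08 (adjusted p = 0.0067). The 8 subunits of CCT, the ring chaperonin that folds actin and tubulin, were all above 0 in the brain (median 0.21, 0 called) and 5 of them were called higher in the liver (median 0.27), led by Tcp1 with 0.51 ± 0.07 (adjusted p = 0.00094). Of 7 mitochondrial chaperones 0 were called in the brain and 2 in the liver, Hspe1 (0.48 ± 0.08, adjusted p = 0.0026) and Dnaja3 (0.41 ± 0.08, adjusted p = 0.0054).

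Chaperones of the endoplasmic reticulum, which fold secreted proteins and answer to another stress pathway, had 7 of 14 genes called higher in the brain (median 0.53, 0.624% of all genes called higher) and 11 of 14 in the liver (median 0.75, 8.27% of all genes called higher). In the brain Calr rose by 0.57 ± 0.07 (adjusted p = 0.0103) and Hspa5 by 0.84 ± 0.13 (adjusted p = 0.0198). The genes for the heat shock factors themselves were not called, with 0 of 4 in either tissue. Hsf1 stood at 756.2, 673.2 and 778.8 normalised counts in WT brains and at 858.2, 851.0 and 840.8 in tRNA-Phe-1-1-/- brains (0.21 ± 0.08, adjusted p = 0.239), and the liver log2 fold change was 0.35 ± 0.16 (adjusted p = 0.157). Hsf2, a related factor, was at 1231, 1075 and 1129 in WT livers and at 1061, 858.8 and 765.4 in tRNA-Phe-1-1-/- livers (-0.37 ± 0.14, adjusted p = 0.0874), and was called lower there against tRNA-Phe-3-1-/- livers (-0.46 ± 0.14, adjusted p = 0.0397). In the brain Hsf4 had the lowest p of the list (-0.49 ± 0.13, adjusted p = 0.106). With the other knockouts set against WT, 1 gene of these chaperone lists was called in either tissue: Bag6, lower in tRNA-Phe-3-1-/- livers (-0.48 ± 0.09, adjusted p = 0.038). In these livers 0.883% of all genes were called in either direction.

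**Figure D4:**
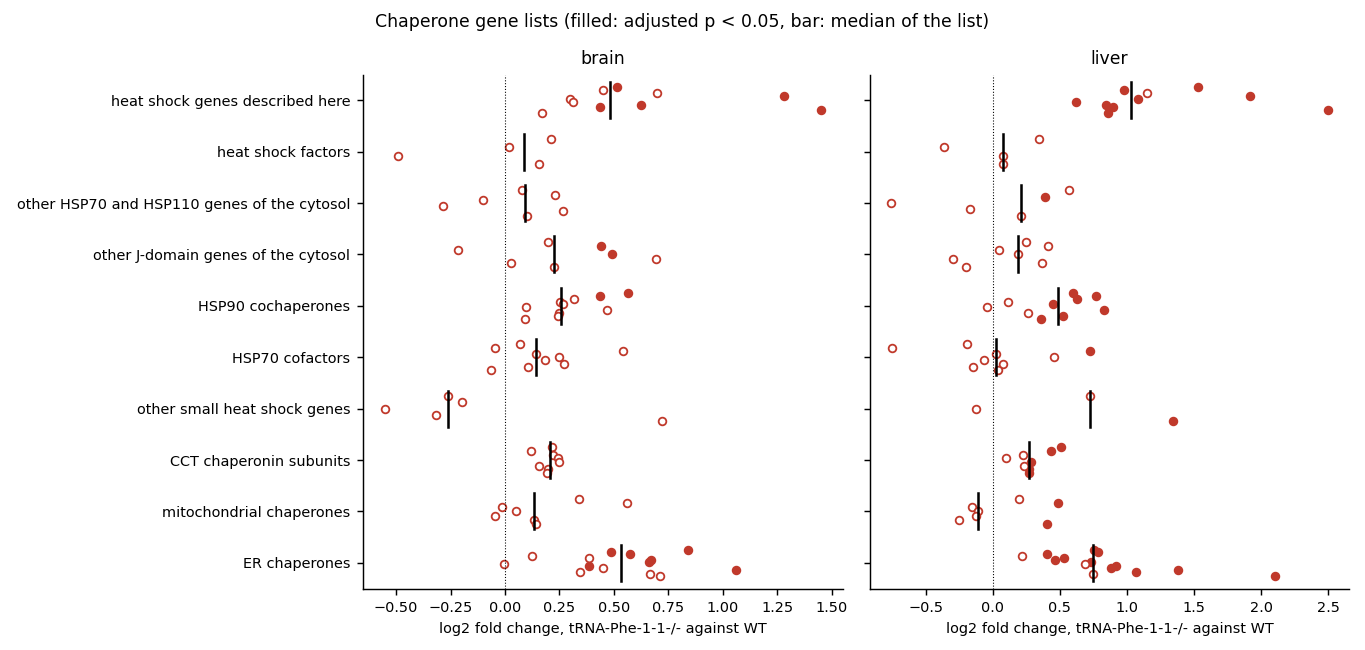
Log2 fold change in tRNA-Phe-1-1-/- against WT mice (horizontal axis) of each tested gene of 10 chaperone lists, in the brain and the liver, with filled points for adjusted p under 0.05 (limma) and a bar at the median of each list. The medians of the heat shock genes described here and of the chaperones of the endoplasmic reticulum are 0.48 and 0.53 in the brain and 1.03 and 0.75 in the liver.

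RNA-binding genes that respond to temperature in the opposite direction were lower in the same samples. Cirbp, whose RNA rises on mild cooling, was at 1352, 1218 and 1286 normalised counts in WT brains and fell to 819.2, 576.7 and 765.6 in tRNA-Phe-1-1-/- brains (log2 fold change -0.85 ± 0.13, adjusted p = 0.0198). In the liver it stood at 490.5, 566.3 and 666.7 in WT mice and at 152.4, 137.5 and 215.9 in tRNA-Phe-1-1-/- mice (-1.78 ± 0.19, adjusted p = 0.00022). Both tissues thus had Cirbp below and heat shock genes above the WT values. Rbm3, the other gene of this kind, fell in the liver (-0.47 ± 0.11, adjusted p = 0.0171) and was at 1569, 1068 and 1430 against 2246, 1981 and 1962 in the brain (-0.62 ± 0.17, adjusted p = 0.106). In tRNA-Phe-3-1-/- brains, where all 10 heat shock genes had values below 0, Cirbp was at 1538, 1833 and 1755, above every WT brain (0.41 ± 0.13, adjusted p = 0.258). The sum of Cirbp and Rbm3 was also above every WT liver in tRNA-Phe-3-1-/- livers (1933.3 to 2034.3 against 1628.8 to 1721.3). There the heat shock genes were mixed, with 4 values above 0 and 6 below. Body temperature was not measured in these data, and its part in the result was not tested.

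Clock genes also differed between the genotypes. In tRNA-Phe-1-1-/- livers 7 of 8 clock genes in phase with Dbp were higher than in WT livers (median log2 fold change 2.61) and 5 of 5 in phase with Bmal1 were lower (median -1.08). Of all 15856 genes tested there, 1311 were called higher and 1440 lower. Dbp, a transcription factor under direct control of the clock, was at 67.4, 28.7 and 67.5 normalised counts in WT livers and at 2776, 852.6 and 3069 in tRNA-Phe-1-1-/- livers. Of the same tRNA-Phe-1-1-/- livers, replicate B was lowest for Dbp and for 5 of the 10 heat shock genes, Hsph1, Hspa8, Hspa1a, Hspa1b and Dnaja1. The other 5 were lowest in another replicate, Dnajb1 in A and Hspb1, Hsp90aa1, Hsp90ab1 and Hspa4l in C. In tRNA-Phe-3-1-/- livers the clock lists differed from WT too, without overlap. The genes in phase with Dbp summed to 5881.1 to 14462 normalised counts against 2952.2 to 4952.6 in WT livers. Those in phase with Bmal1 summed to 4616.6 to 7019.3 against 7692.2 to 8413.8. The 10 heat shock genes had a median log2 fold change of -0.15 there, with 0 called. Dbp was at 170.0, 2173 and 1343 in tRNA-Phe-3-1-/- livers, where replicate A, the lowest for Dbp, was lowest for the same 5 of the 10 heat shock genes. Replicate B of that group, the highest for Dbp, was above every WT liver for 3 of the 10, Hspa1b, Dnajb1 and Dnaja1, and below every WT liver for 4, Hsph1, Hsp90aa1, Hsp90ab1 and Hspa4l. The replicate lowest for Dbp was lowest for 5 of the 10 in WT livers and for 1 in tRNA-Phe-2-1-/- livers. The replicate highest for Dbp was highest for 4 of the 10 in each knockout group and for 0 in WT livers. Shares over all genes were not computed for these counts. Replicate B of the tRNA-Phe-1-1-/- livers is the library farthest from the median liver profile. In the brain 2 of the 8 genes in phase with Dbp were called higher (0.624% of all genes), Per2 and Per3, and 0 of 5 in phase with Bmal1 were called. Per2, which responds to both the clock and HSF1, stood at 581.7, 677.5 and 931.2 in WT brains and at 1435, 1414 and 1460 in tRNA-Phe-1-1-/- brains (1.00 ± 0.16, adjusted p = 0.0202). The time of day at which tissues were taken is not given in the sources used here, and its part in the result was not tested.

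**Figure D5:**
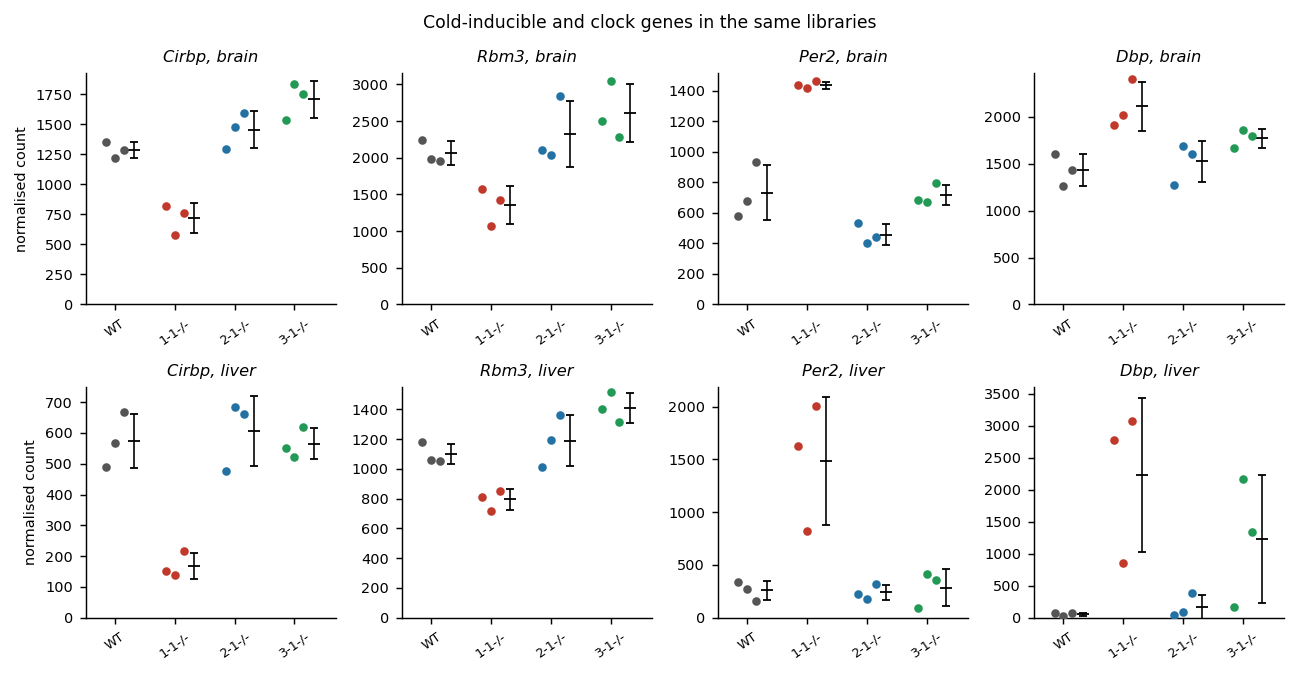
Normalised counts (vertical axes, from 0) of the cold-inducible genes Cirbp and Rbm3 and of the clock genes Per2 and Dbp in the brain (upper row) and the liver (lower row), by genotype. Points are samples and bars the mean ± SD of 3; tRNA-Phe-1-1-/- samples are below every WT sample for Cirbp and Rbm3 and above for Per2 and Dbp, and 2 tRNA-Phe-3-1-/- livers reach 2173 and 1343 for Dbp.

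Markers of some cell types also differed between the groups. In the brain 5 oligodendrocyte markers summed to 107820 to 128610 normalised counts in WT mice and 40865 to 77819 in tRNA-Phe-1-1-/- mice, with 0 of 5 called and none at 0, while neuron markers overlapped (119060 to 148080 and 110550 to 137210, 0 of 5 called). Red blood cell markers summed to 19732 to 26031 in WT livers and 11566 to 13840 in tRNA-Phe-1-1-/- livers, with 4 of 5 called lower (1440 of 15856 genes over all). In the brain they summed to 15395 to 28255 and 7587.8 to 9630.5, without overlap and with 0 of 5 called. Neutrophil markers summed to 7.82 to 35.6 and 84.9 to 241 in the same livers, with 2 of 2 tested called higher (8.27% of all genes), S100a8 and S100a9, and Ngp and Camp below 10 in both groups. The 5 hepatocyte markers summed to 2614500 to 3169400 normalised counts in WT livers and 2128700 to 2611900 in tRNA-Phe-1-1-/- livers, lower without overlap. Of these 5 markers 1 was called higher in tRNA-Phe-1-1-/- livers (8.27% of all genes), Fgb. The sums were below the WT range in tRNA-Phe-2-1-/- livers too (2190500 to 2495400). In tRNA-Phe-2-1-/- brains, with 0 of the 10 heat shock genes called, oligodendrocyte markers summed to 59261 to 142700. Red blood cell markers there summed to 6609.6 to 15616. In tRNA-Phe-3-1-/- brains the sums were 73048 to 157450 and 16632 to 37016. Between WT and tRNA-Phe-1-1-/- mice, astrocyte and microglia markers overlapped in the brain, as did Kupffer cell, stellate cell and cholangiocyte markers in the liver. The part of these cells in the result was not tested. Of 11 immediate early genes in the brain and 8 in the liver, which respond within minutes to handling, 0 were called in tRNA-Phe-1-1-/- against WT mice. In the brain they summed to 10725 to 25288 normalised counts in WT mice, 15226 to 21483 in tRNA-Phe-1-1-/- and 4018.8 to 7949.5 in tRNA-Phe-3-1-/- mice, the last without overlap with WT and with 0 of 11 called. Against tRNA-Phe-3-1-/- brains 4 of 11 were called higher in tRNA-Phe-1-1-/- brains (1.41% of all genes), Fosb, Arc, Npas4 and Fos, and 1 of 11, Fosb, against tRNA-Phe-2-1-/- brains (0.395% of all genes). Among livers 2 of 8, Junb and Fos, were called higher in tRNA-Phe-1-1-/- than in tRNA-Phe-2-1-/- mice (7.37% of all genes) and 1 of 8, Fos, than in tRNA-Phe-3-1-/- mice (7.45% of all genes). Their part in the result was not tested.

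The genes most like the heat shock genes were sought by the correlation of each protein-coding gene with the mean log2 deviation of the 10 genes over the 12 samples of a tissue, which share genotype groups and size factors, so the values describe a pattern only. In the brain, out of 13153 genes, these were Calr (Pearson r = 0.977), Tbc1d10a (0.966), Pdia4 (0.965), P4ha1 (0.963) and Hspa5 (0.962). Calr, Pdia4 and Hspa5 encode chaperones of the endoplasmic reticulum, and P4ha1 encodes a subunit of the collagen prolyl hydroxylase. In the liver, out of 11344 genes, they were Ftsj1 (0.969), St3gal5 (0.966), Alkbh5 (0.965), Top1 (0.961) and Nup50 (0.957), among which Ftsj1 encodes a tRNA methyltransferase and Top1 a DNA topoisomerase. The mean deviation itself was 0.49 to 0.62 in tRNA-Phe-1-1-/- brains, -0.17 to -0.03 in WT, -0.20 to -0.10 in tRNA-Phe-2-1-/- and -0.36 to -0.28 in tRNA-Phe-3-1-/- brains.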

How the data were processed

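RNA sequencing was performed by the authors on brain and liver RNA from 3 WT mice and 3 mice of each knockout. Per the study's methods, reads were trimmed with Trim Galore, aligned with STAR to GRCm38.p6 and quantified with Salmon, and DESeq2 was run in each tissue. The deposited signal of the authors was taken as a normalised count, since all values above 0 (100%) were whole multiples of one step per sample, as counts divided by one size factor are. The step gave the recovered reads. How the authors computed the factor is not given in the sources used here. Bias correction and the division of reads between transcripts affect genes with close copies most. The deposited comparison tables hold the authors' own fold changes and s-values and were not used.

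Tests were run with limma 3.58.1 (R 4.3.3, variance trend) on log2(normalised count + 1), with the 12 samples of a tissue in one fit and genes with a mean of at least 10. P-values were two-sided, adjusted by the Benjamini-Hochberg method over all genes tested (19228 in the brain, 15856 in the liver), with a threshold of 0.05. Replicates were separate mice per the methods. With 3 against 3, an exact permutation test cannot give a p under 0.1. No 2 replicates agreed within sampling noise. edgeR 4.0.16 and DESeq2 1.42.0 served as alternatives on recovered reads, and the fits were tested on simulated data.

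The heat shock genes, gene lists and tests were chosen with earlier results of these data known. The text names all 10 heat shock genes, mainly up to 3 genes of each list with the lowest p in a comparison, and 5 genes per tissue whose pattern was most like the 10. Exceptions include the immediate early genes Fosb, Arc, Npas4 and Fos, named for the same comparison, and the low neutrophil markers Ngp and Camp. Symbols came from GENCODE vM39 through the Ensembl identifiers (93.2% matched), and shared 100-base stretches were counted in its transcripts. Promoter windows and positions came from RefSeq for GRCm38.p6.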

Additional observations from a re-analysis of the deposited data

Results flagged for a closer look

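A difference between the tissues was found for 3 of the 10 heat shock genes, whose change in tRNA-Phe-1-1-/- against WT mice was larger in the liver than in the brain in one limma fit of both tissues. A larger change in the liver was called for 464 of all 14456 genes tested (3.21%). The difference was 1.02 ± 0.22 on the log2 scale for Hsph1, with liver samples at 1177 to 1763 normalised counts in WT and 3541 to 4532 in tRNA-Phe-1-1-/- mice and brain samples at 6215 to 7485 and 9103 to 10301. It was called in all 12 fits that left out 1 library (0.91 to 1.20). For Hsp90aa1 the difference was 0.78 ± 0.19 and was called in all 12 such fits (0.69 to 0.88, highest adjusted p 0.0492). For Hspa4l it was 0.69 ± 0.20 (0.58 to 0.78), and the call held in 3 of 12 fits only, those without liver WT replicate A, liver tRNA-Phe-1-1-/- replicate B or liver tRNA-Phe-1-1-/- replicate C.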

How the results depend on the processing

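Of 67 printed fold changes of the 10 heat shock genes, 0 changed sign in 729 values under other processing (added constants of 0.1 and 5, filters of none and of a mean of 50, quantile normalisation, trimmed-mean rescaling, no variance trend, the replicate block, edgeR or DESeq2 on recovered reads, only the 6 samples compared, and Hspa1a with Hspa1b summed) or in 426 values with 1 library left out. Under other processing 36 lost their call and 16 gained one; with 1 library left out 75 lost it and 5 gained one. Without a variance trend, 2 genes in place of 5 were called in tRNA-Phe-1-1-/- against WT brains and 3 in place of 6 in the test of any difference among the brains. Over all genes, 50 in place of 120 were called higher in the former and 49 in place of 122 were called in the latter. With only the 6 samples compared, tRNA-Phe-1-1-/- brains had 2 genes called against WT, 0 against tRNA-Phe-2-1-/- (4 in the main analysis) and 1 against tRNA-Phe-3-1-/- (8 in the main analysis), where fewer samples estimate the spread. Over all genes, 86, 5 and 4 were called higher in these fits, against 120, 76 and 272 in the main analysis. A mean of at least 50 gave 7 genes against tRNA-Phe-2-1-/- brains (108 of 15157 genes over all called higher). DESeq2 called 8 and 9 genes in tRNA-Phe-1-1-/- against WT and tRNA-Phe-2-1-/- brains (2.5% and 2.13% of all genes higher), 1 in tRNA-Phe-3-1-/- against WT brains (1.18% lower), 1 in tRNA-Phe-2-1-/- against WT livers (2.11% lower) and 3 in tRNA-Phe-3-1-/- against WT livers (3.01% lower), so that it called more of all genes too, and the cause was not tested. With 1 library left out, the brain counts ranged from 0 to 4 against WT, 1 to 3 against tRNA-Phe-2-1-/- and 4 to 7 against tRNA-Phe-3-1-/-. Over all genes, the numbers called higher in these brain fits ranged from 4 to 103, 9 to 51 and 36 to 287. For the heat shock genes the corresponding liver counts were 8 to 10, 6 to 9 and 6 to 9, and 2 to 4 genes differed between the tissues. In the main analysis 8.27%, 7.37% and 7.45% of all genes were called higher in these liver comparisons. A larger change in the liver than in the brain was called there for 3.21% of all genes. In the brain 1 gene against tRNA-Phe-2-1-/- was left without tRNA-Phe-1-1-/- replicate C or tRNA-Phe-2-1-/- replicate B, 2 without tRNA-Phe-1-1-/- replicate B or tRNA-Phe-2-1-/- replicate A or C, and 4 against tRNA-Phe-3-1-/- without tRNA-Phe-1-1-/- replicate B or C. The labels do not say whether the replicate letters pair the samples. Deviations from the group means of same-letter samples had a median correlation of 0.034 in the brain (-0.164 to 0.492) and -0.025 in the liver (-0.294 to 0.236). For samples of different letters the medians were -0.035 and -0.0038. Correlations over 0.1 were found for 7 of 18 same-letter and 9 of 36 other brain pairs, and for 3 of 18 and 10 of 36 liver pairs. With 3 samples per group these values cannot exclude a pairing. With the replicate letter as a block, 4 in place of 5 genes were called in tRNA-Phe-1-1-/- against WT brains and 9 in the livers, 2 printed calls were lost, those of Dnaja1 against WT (adjusted p = 0.0723) and Hsp90ab1 against tRNA-Phe-3-1-/- brains (adjusted p = 0.0611), and 1 was gained, that of Hspb1 between the tissues (1.05, adjusted p = 0.0136). Over all genes, 96 were called higher in these brains with the block, against 120 of 19228 without it. In the livers 1311 of 15856 were called higher without it. Depth limits Hspa1a in the liver, which was at 23.7 to 112.6 normalised counts.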
